A study of Mus musculus with 49 samples.

Results

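The genes encoding the epidermal growth factor (EGF) receptor family, its ligands and the hepatocyte growth factor (HGF) receptor were followed from freshly isolated mouse hepatocytes to dedifferentiated hepatocytes (dediHeps) and to the aggregates and intestinal organoids grown from them. The members were the rows of the deposited unique molecular identifier (UMI) count matrix whose Ensembl identifier maps to a listed symbol, 10 of 46078 identifiers: 4 receptors (Egfr, Erbb2, Erbb3 and Met) and 6 ligands (Areg, Ereg, Hbegf, Tgfa, Btc and Epgn). The matrix holds 49 CEL-seq2 libraries in 16 conditions, all from wild-type C57BL/6J mice. Freshly isolated hepatocytes (FH, n = 3) came from livers of 10-week-old mice, and hepatocytes isolated in that way were plated on collagen in standard medium with EGF at 20 ng/mL for 3 h or for 1, 2, 4, 7 or 14 days (n = 3 each). Further cultures kept for 7 days received DMSO (n = 2) or the Yap inhibitor verteporfin at 0.3 µM (n = 2). DediHeps (n = 5) grew in the same EGF medium and were also formed into aggregates in non-adherent wells (n = 3), grown in Matrigel as spherical organoids (SOs, n = 3), or transduced with Cdx2 and grown as budding organoids (BOs, n = 3). Comparators were SOs of fetal intestinal progenitor cells from E13.5 embryos (FIPC-derived SOs, n = 3) and BOs of intestinal stem cells from 10-week-old adult mice (ISC-derived BOs, n = 4). A further comparator was CLiPs (n = 3), cells that the study induced from hepatocytes of 10-week-old mice by a published small molecule protocol. Plated hepatocytes and dediHeps therefore received soluble EGF while FH had not been cultured, and HGF was left out of the standard medium. The study's organoid media also held EGF, with Noggin and R-spondin, and for SOs Wnt activators that were left out for BOs. Comparisons of SOs with dediHeps and of BOs with SOs therefore also differ in medium. Aggregates were kept in the medium of an earlier aggregation protocol, and the CLiP protocol uses serum-free culture with small molecules. Comparisons of aggregates and of CLiPs with dediHeps thus differ in medium too. Where the labels name the culture, the dediHep, aggregate and SO libraries are separate cultures, and for the other conditions p-values measure the spread between libraries, which may be in part technical.

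Egfr is the receptor tyrosine kinase for EGF and its relatives. It signals as a dimer, alone or with Erbb2, which has no known ligand, or with Erbb3, which has little kinase activity of its own and recruits PI3K. The ligands are made as membrane proteins and released by metalloproteases such as Adam17. Met, the receptor for HGF, shares adaptors and the ERK and PI3K cascades with this family, and both systems drive hepatocyte proliferation in the regenerating liver.

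The members lie on several chromosomes (GRCm38, GENCODE M21 gene bounds). Egfr covers chr11:16752203-16918158 (plus strand), Erbb2 chr11:98412470-98437716 (plus), Erbb3 chr10:128567523-128589652 (minus) and Met chr6:17463800-17573980 (plus). Epgn, Ereg, Areg and Btc form a cluster of 375.5 kb on chromosome 5, with Areg at chr5:91139599-91148432 (plus) and Btc at chr5:91357261-91402994 (minus), and Tgfa lies at chr6:86195223-86275719 (plus). The promoters of 3 members are shown because their levels moved in opposite directions or came from 0 counts: Egfr, the receptor that was nearly lost, and Erbb2 and Areg, which had no count in any FH library. Each runs from 250 bases before to 50 bases after the RefSeq start (GRCm38.p6, plus strand), at chr11:16751953-16752252, chr11:98412234-98412533 and chr5:91139349-91139648. Capitals mark the motif matches.
Egfr: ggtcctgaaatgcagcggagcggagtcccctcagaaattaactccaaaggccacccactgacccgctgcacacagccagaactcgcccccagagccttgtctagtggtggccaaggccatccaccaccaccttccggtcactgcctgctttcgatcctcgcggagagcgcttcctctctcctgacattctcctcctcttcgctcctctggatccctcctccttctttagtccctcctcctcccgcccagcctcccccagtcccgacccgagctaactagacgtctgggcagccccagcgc
Erbb2: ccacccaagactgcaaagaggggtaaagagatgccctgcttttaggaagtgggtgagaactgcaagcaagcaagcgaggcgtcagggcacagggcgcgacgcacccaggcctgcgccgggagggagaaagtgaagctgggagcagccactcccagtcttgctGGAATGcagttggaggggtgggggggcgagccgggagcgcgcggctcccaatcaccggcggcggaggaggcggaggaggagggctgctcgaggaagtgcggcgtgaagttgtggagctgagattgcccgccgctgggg
Areg: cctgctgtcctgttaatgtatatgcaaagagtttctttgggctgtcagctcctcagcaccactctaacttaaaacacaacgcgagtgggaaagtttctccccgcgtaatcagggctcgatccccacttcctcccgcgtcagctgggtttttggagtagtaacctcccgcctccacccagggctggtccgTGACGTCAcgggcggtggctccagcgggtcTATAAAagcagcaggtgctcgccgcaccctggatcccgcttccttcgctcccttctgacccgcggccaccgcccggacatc
The letters searched on both strands were TGANTCA (AP-1), TGACGTCA (cAMP response element, CRE), GGAATG (TEAD, the DNA-binding partner of Yap) and TATAAA (a core promoter element), and RefSeq held a promoter for 7 of the 10 members. The Areg window held the CRE letters from base −61 and TATAAA from base −31, and the Erbb2 window held the TEAD letters from base −88. The Egfr window held none of the 4, with a GC content of 62.3%. Of all 32841 promoters of this length, 1.79% held the CRE letters, 13.6% TATAAA, 14.7% the TEAD letters and 7.81% the AP-1 letters, so a match in 1 gene describes its sequence and no more.

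The libraries held 861047 to 3872936 UMIs (median 1976760), and 3 counts correspond to between 0.671 and 3.91 CPM (UMI counts scaled to a common library size), with 2.99 to 3.91 in FH and 3.05 to 3.59 at 3 h. Levels are given as mean CPM ± SD over libraries, scaled by trimmed mean of M values (TMM), and since CEL-seq2 tags each molecule once near its 3′ end they are not divided by gene length. FH and 3 h libraries had the lowest scaling factors (0.633 to 0.735, against 0.875 to 1.25 elsewhere), so their levels lie above plain CPM. Summed hepatocyte markers stood at 17844 ± 3355 CPM in FH and 2801 ± 1362 in dediHeps, with 6 of 6 markers detected in both. FH libraries also held endothelial markers (5 of 5 detected, summed level 169 to 303 CPM) and macrophage markers (6 of 6, 43.9 to 154 CPM). In dediHeps the same lists summed to 0 to 0.508 CPM (Kdr, Cdh5, Stab2 and Clec4g at 0) and to 1.45 to 10.5 CPM (Adgre1 and C1qa at 0). Mesenchymal markers summed to 66.8 to 181 CPM in FH (6 of 6 detected) and 0 to 1.64 CPM in dediHeps (Col1a2, Col3a1, Pdgfrb and Lrat at 0). Cholangiocyte markers went the other way, from 17.0 to 103 CPM in FH (Krt19 and Epcam at 0) to 1022 to 1636 CPM in dediHeps (5 of 5 detected). Part of this was already seen at 3 h, with endothelial markers at 66.3 ± 28.9 CPM, macrophage markers at 6.83 ± 5.21 CPM and mesenchymal markers at 26.6 ± 2.87 CPM. Cholangiocyte markers summed to 656 ± 17.8 CPM at 3 h, with 4 of 5 detected and Krt19 still at 0. The lists moved together with the differences between FH and cultured cells below, and their part in them was not tested. In such bulk samples, fewer cells of a type and less RNA per cell cannot be told apart.

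Over the whole series, the mRNA of the 4 receptors together exceeded ligand mRNA in every condition, and the share taken by ligands was lowest in FH. That receptor sum includes Met, the receptor for HGF, which is not among the 6 ligands. In dediHeps the means of Egfr (32.0 CPM), Erbb2 (17.3 CPM) and Erbb3 (15.5 CPM) all lay below the Hbegf mean of 131 CPM. Without Met, ligand mRNA therefore exceeded receptor mRNA in dediHeps. The 4 receptors summed to 1141 ± 79.6 CPM in FH and 617 ± 192 CPM in dediHeps, while the 6 ligands summed to 20.7 ± 5.65 and 245 ± 37.2 CPM. Ligands thus made up 1.80% ± 0.551 of all member UMIs in FH, 6.19% at 3 h, 22.1% at 2 weeks and 29.4% ± 6.72 in dediHeps. The makeup of both classes also changed. Egfr and Met contributed 49% ± 6.8 and 44.1% of the receptor sum in FH, whereas in dediHeps Egfr gave 6.71% ± 9.8 and Met 87.6%. Tgfa was 86.6% ± 4.7 of the ligand sum in FH, Hbegf was 52.4% of it in dediHeps, and Areg was the largest part in dediHep-derived BOs (47.5%), FIPC-derived SOs (44.7%) and ISC-derived BOs (41.4%).

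**Figure D1:**
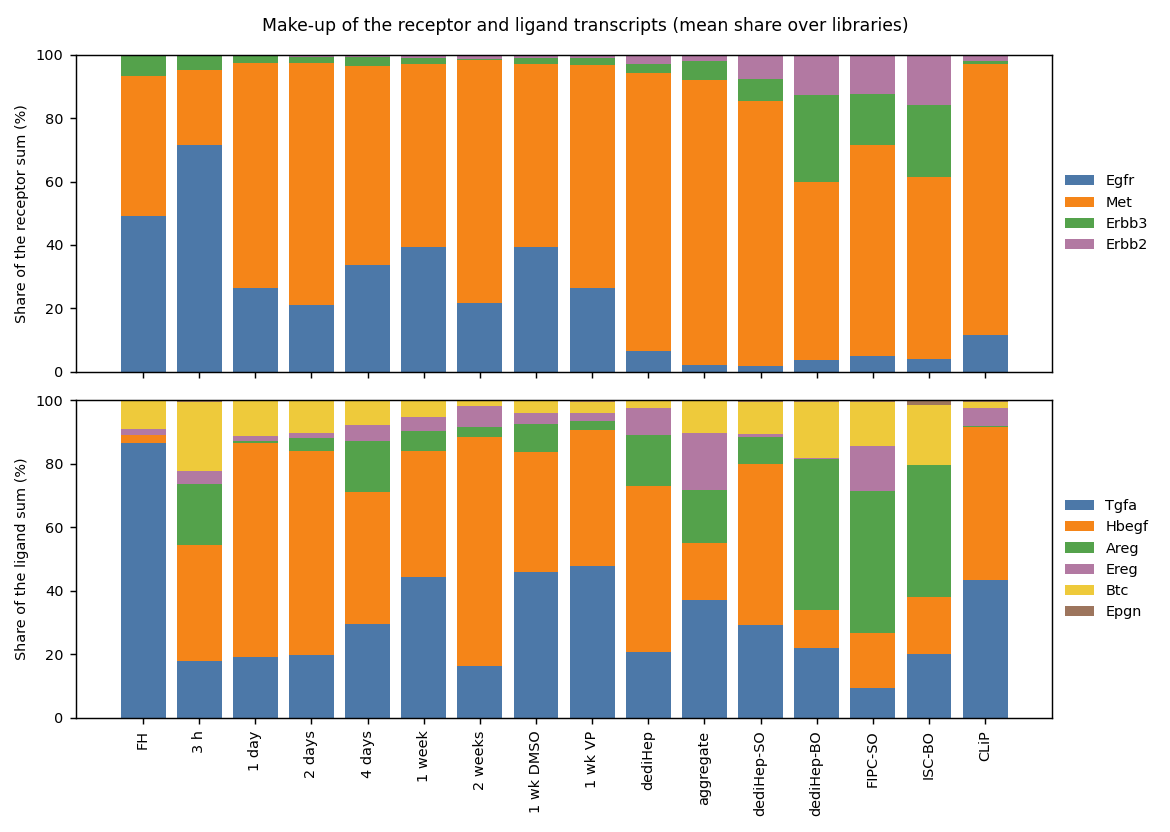
Share of each member in the summed receptor CPM (top) and in the summed ligand CPM (bottom), in percent, for the 16 conditions, with bars stacked to 100%. Egfr takes 49% of the receptor sum in FH and 6.71% in dediHeps, and the mean share of Hbegf exceeds that of Tgfa at 3 h, 1, 2 and 4 days, 2 weeks and in dediHeps, while Tgfa leads at 1 week and in aggregates.

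Egfr was among the 2 most abundant receptors in hepatocytes and was nearly lost in dediHeps. In FH the 3 libraries held 619, 482 and 571 CPM, and at 3 h they held 597, 932 and 748 CPM, so both groups overlapped (log2 fold change 0.45 ± 0.29 SE, edgeR FDR = 0.32). From 1 day (237, 258 and 224 CPM) to 2 weeks (211, 218 and 174 CPM) every library lay below every FH library on the TMM scale. In CPM without the scaling factor, replicate 2 at 4 days (332) and at 1 week (352) exceeded FH replicate 2 (306). The fall was −1.39 ± 0.30 at 1 day (edgeR FDR = 0.00095), −2.21 ± 0.31 at 2 days (FDR = 5.1e-06) and −1.61 ± 0.30 at 2 weeks (FDR = 0.00013). With library totals in place of TMM these became −0.73 (edgeR FDR = 0.066), −1.41 (FDR = 0.00095) and −0.91 (FDR = 0.018), and at 1 week the fall of −1.31 ± 0.30 (FDR = 0.0011) became −0.42 and no longer passed (FDR = 0.25). Between 3 h and 1 day alone it fell by 1.84 ± 0.30 on the log2 scale (edgeR FDR = 5.0e-05). DediHeps then split: replicate 1 held 100.2 CPM and the other 4 libraries 12.0 to 18.7 CPM. All 5 were below the lowest library at 2 weeks (−2.62 ± 0.66, edgeR FDR = 0.033) and below FH (−4.29 ± 0.72, FDR = 0.0007). Without replicate 2 of the 2-week cultures the edgeR FDR against 2 weeks no longer passed 0.1. The aggregate and the SO library grown from the same culture as dediHep replicate 1 held 17.8 and 9.45 CPM, within or below the range of the other 4 dediHep libraries.

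Erbb2, the ligandless partner, took the opposite course. No UMI was counted in the 3 FH libraries or in the 3 libraries at 3 h, which allows up to 2.99 to 3.91 CPM per FH library and 3.05 to 3.59 CPM per library at 3 h. At 1 day the libraries held 3.87, 0.508 and 1.52 CPM, at 2 weeks 14.3, 15.2 and 6.87 CPM, and in dediHeps 15.9, 7.63, 16.7, 21.6 and 24.6 CPM. Every library from 2 weeks onward was above the level that 0 counts allow in FH. With 3 counts over the 3 FH libraries as the floor, Erbb2 was at least 1.65-fold higher at 1 day (edgeR FDR = 0.047), 10.6-fold at 2 weeks (FDR = 0.00029) and 13.4-fold in dediHeps (FDR = 0.00066). The 1-day call is the least firm: its levels lie around the per-library limit in FH, and it no longer passed without FH replicate 1, FH replicate 3 or 1-day replicate 1. Erbb2 overlaps Mien1 on the opposite strand. Mien1 stood at 162 ± 66.9 CPM in FH and 156 ± 27.4 CPM at 3 h, where Erbb2 had 0 counts, so Mien1 UMIs were not assigned to Erbb2 there. Between 2 weeks and dediHeps the difference was 0.49 ± 0.44 (edgeR FDR = 0.48) and the libraries overlapped.

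**Figure D2:**
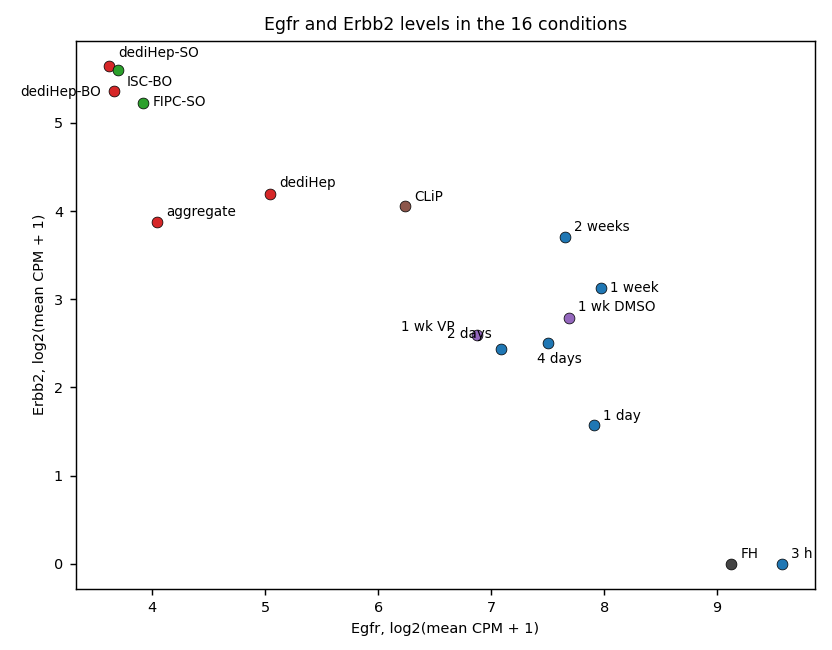
Mean Egfr level against mean Erbb2 level in the 16 conditions, both as log2(CPM + 1). Conditions run from FH (Egfr 558 CPM, Erbb2 0) to the organoids (Egfr 11.3 to 14.2 CPM, Erbb2 36.5 to 49.2 CPM), with Pearson r = −0.91 as a description over 16 means that share libraries and scaling.

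Erbb3 fell in culture, and its mean was higher again in 3-dimensional cultures. FH libraries held 94.6, 96.5 and 39.9 CPM, and every library from 1 day (15.2 to 24.1 CPM) to 2 weeks (1.82 to 7.13 CPM) was lower. The log2 fold change against FH was −2.06 ± 0.55 at 1 day (edgeR FDR = 0.0055) and −4.09 ± 0.63 at 2 weeks (FDR = 1.5e-05). DediHeps spanned 2.19 to 31.5 CPM (median 14.2), −2.53 ± 0.59 against FH (edgeR FDR = 0.0061). With library totals Erbb3 was −1.39 at 1 day (edgeR FDR = 0.050), −3.35 at 2 weeks and −1.61 in dediHeps (FDR = 0.045). Of the other conditions, dediHep-derived BOs (86.8 ± 20.6 CPM) reached the FH level of 77 ± 32.2 CPM and CLiPs (6.19 ± 5.24 CPM) were near the 2-week level of 4.89 ± 2.75 CPM. Against dediHeps, Erbb3 was 1.48 ± 0.55 in SOs (edgeR FDR = 0.12) and 1.41 ± 0.56 in aggregates (FDR = 0.11), and neither passed. With the culture as a block the edgeR FDR was 0.19 in SOs and 0.030 in aggregates. Erbb3 at 3 h (23.9, 106 and 33.2 CPM) overlapped both FH and 1 day, and its fall from 3 h to 1 day (−1.56 ± 0.54, edgeR FDR = 0.023) did not pass without 3 h replicate 2.

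Met levels in FH overlapped those at each culture time from 1 day to 2 weeks and in dediHeps, with wide spreads between libraries. Only the 3 h libraries of the time course all lay below FH. FH libraries held 379, 519 and 621 CPM, the 1-day libraries 574, 522 and 918 CPM and dediHeps 294 to 804 CPM (median 620.3), and all 3 groups overlapped. Against FH the differences were 0.24 ± 0.41 at 1 day (edgeR FDR = 0.69), 0.38 ± 0.41 at 2 weeks (FDR = 0.45) and −0.10 ± 0.36 in dediHeps (FDR = 0.86). Met was lower at 3 h (276, 176 and 267 CPM), by −1.07 ± 0.41 (edgeR FDR = 0.095), and rose again by 1.30 ± 0.41 to 1 day (FDR = 0.014). The 3 h difference from FH did not pass in 5 of 6 fits that left out 1 library. Because FH and 3 h carry the lowest scaling factors, Met depends on the scaling: with library totals alone it was 0.91 above FH at 1 day (edgeR FDR = 0.049), 1.10 above at 2 weeks (FDR = 0.015) and 0.79 above in dediHeps. The ratio of Egfr to Met UMIs was 1.16 ± 0.41 in FH, 3.42 ± 1.66 at 3 h and 0.0885 ± 0.141 in dediHeps, where replicate 1 gave the highest value of 0.341 and the median was 0.0281, and within a library this ratio is free of scaling.

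**Figure D3:**
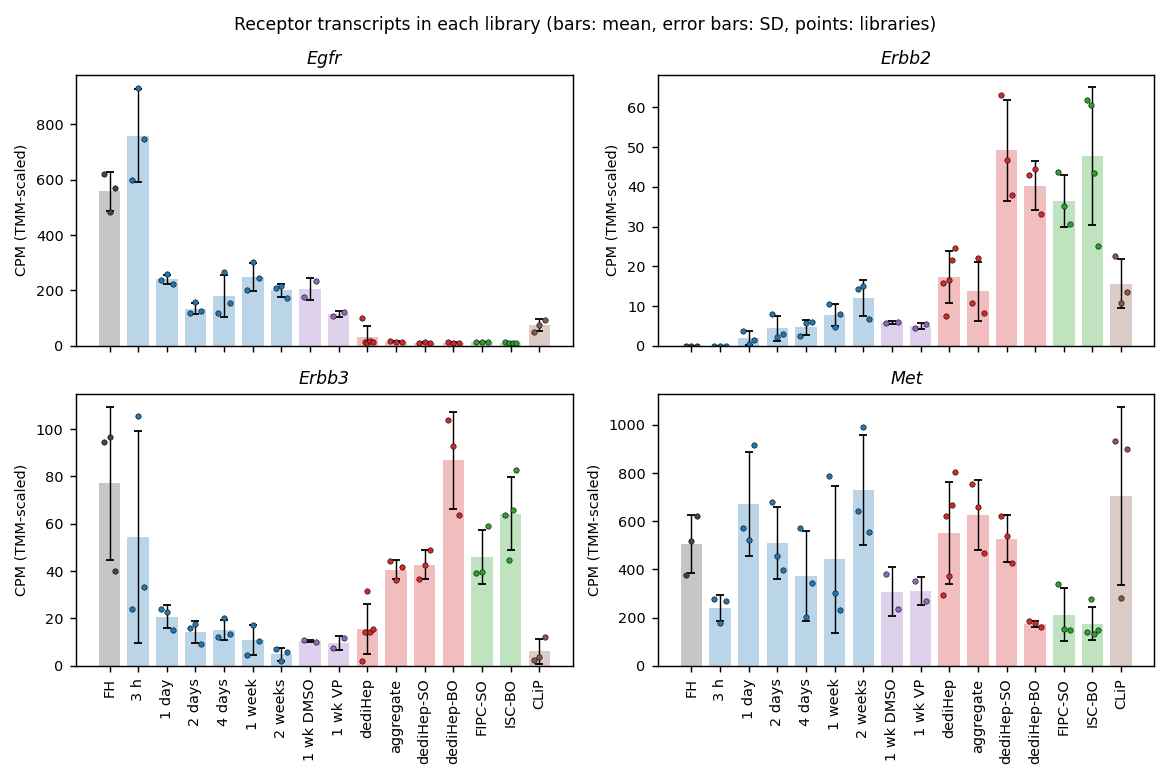
Level of the 4 receptors in each library (points) with the condition mean (bar) and SD (error bar), as TMM-scaled CPM, for the 16 conditions. Egfr steps down between 3 h and 1 day and again in dediHeps, Erbb2 starts at 0 in all 6 FH and 3 h libraries, and Met stays between 175 and 729.7 CPM on average.

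After plating, 5 of the 6 ligands rose, each with its own timing. Hbegf, the heparin-binding ligand released by Adam proteases, had 1 UMI in the 3 FH libraries and 26.3, 26.4 and 22.5 CPM at 3 h. It reached 145, 118 and 91.5 CPM at 1 day and 184, 139 and 242 CPM at 2 weeks, with no overlap between FH, 3 h and the later times. The ratio to the 1 UMI in FH was 67.8 at 3 h (95% counting interval 11.8 to 2717, edgeR FDR = 0.00013) and 428 at 2 weeks (76.6 to 16917, FDR = 3.9e-09). From 3 h to 1 day it rose by 2.06 ± 0.44 on the log2 scale (edgeR FDR = 0.0008). DediHeps kept 73.7 to 196 CPM (median 129.7).

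Areg (amphiregulin) had an early and a late phase. It had no UMI in FH, 15.6, 11.2 and 12.8 CPM at 3 h and 0.860, 1.53 and 0.505 CPM at 1 day. It was at least 11.8-fold above the FH floor at 3 h (edgeR FDR = 0.0089) and fell by 3.86 ± 0.92 on the log2 scale to 1 day (FDR = 0.0023), so all 3 early libraries exceeded all 3 libraries at 1 day. At 1 day only 6 UMIs were counted and no fold against FH can be given. Later it stood at 5.72, 32.7 and 46.6 CPM at 4 days and 7.13, 8.49 and 9.16 CPM at 2 weeks, at least 21.7-fold (edgeR FDR = 0.0002) and 6.29-fold (FDR = 0.0051) above FH. DediHeps held 54.2, 34.1, 50.6, 44.0 and 2.89 CPM. Of these, 4 of 5 libraries exceeded all 2-week libraries and replicate 5 lay below them (2.19 ± 0.73, edgeR FDR = 0.081), and that call was lost without any 1 of the 2-week replicates or without dediHep replicate 2 or 3 (range 2.00 to 2.49).

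Btc (betacellulin) rose early and stood lower at 2 weeks, while Ereg (epiregulin) had its highest mean at 2 weeks. Btc held 2.18, 1.30 and 1.99 CPM in FH, 14.4, 10.2 and 20.3 CPM at 3 h, 18.1, 19.3 and 18.7 CPM at 1 day and 4.51, 2.43 and 5.72 CPM at 2 weeks. It was 2.98 ± 0.62 above FH at 3 h (edgeR FDR = 0.0043) and 3.24 ± 0.60 at 2 days (FDR = 0.00017), against 0.97 ± 0.68 at 2 weeks (FDR = 0.25). No Btc library from 3 h to 2 weeks overlapped FH, and at 1 week Btc was still 2.14 ± 0.62 above FH (edgeR FDR = 0.0078). Ereg had 1 UMI in FH and 0 to 6.45 CPM at 3 h and 1 day, and it reached 8.58, 4.79 and 13.4 CPM at 4 days and 19.5, 18.8 and 11.4 CPM at 2 weeks. At 1 day Ereg was called against FH (ratio 8.78, 95% counting interval 1.43 to 362, edgeR FDR = 0.095), but not in 4 of 6 fits without 1 library. Its ratio to FH was 21.1 at 4 days (95% counting interval 3.63 to 847, edgeR FDR = 0.0067) and 42.8 at 2 weeks (7.5 to 1710, FDR = 0.00079). Both genes belong to the chromosome 5 cluster, in which, as a description, the highest time-course mean was at 4 days for Areg, 2 weeks for Ereg and 2 days for Btc, and Epgn (epigen) had 41 UMIs over 28 of 49 libraries and never passed the low-count filter.

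Tgfa, the ligand that FH already expressed, changed less. Its libraries held 25.0, 14.3 and 15.0 CPM in FH, 60.4, 73.6 and 31.0 CPM at 4 days and 65.7, 107 and 62.0 CPM at 1 week. The rise was 1.46 ± 0.43 at 4 days (edgeR FDR = 0.0091) and 1.96 ± 0.43 at 1 week (FDR = 0.00083), and no library of these times reached down to FH. At 2 weeks (1.00 ± 0.43, edgeR FDR = 0.061) the difference did not pass without FH replicate 2, FH replicate 3 or 2-week replicate 2 (range 0.86 to 1.32 over fits without 1 library). DediHeps held 37.9 to 68.4 CPM (median 47.5), 1.26 ± 0.41 above FH (edgeR FDR = 0.031), which did not pass without FH replicate 2 or FH replicate 3. With library totals Tgfa was called higher at 4 days (2.35), at 1 week (2.82) and in dediHeps (2.14).

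**Figure D4:**
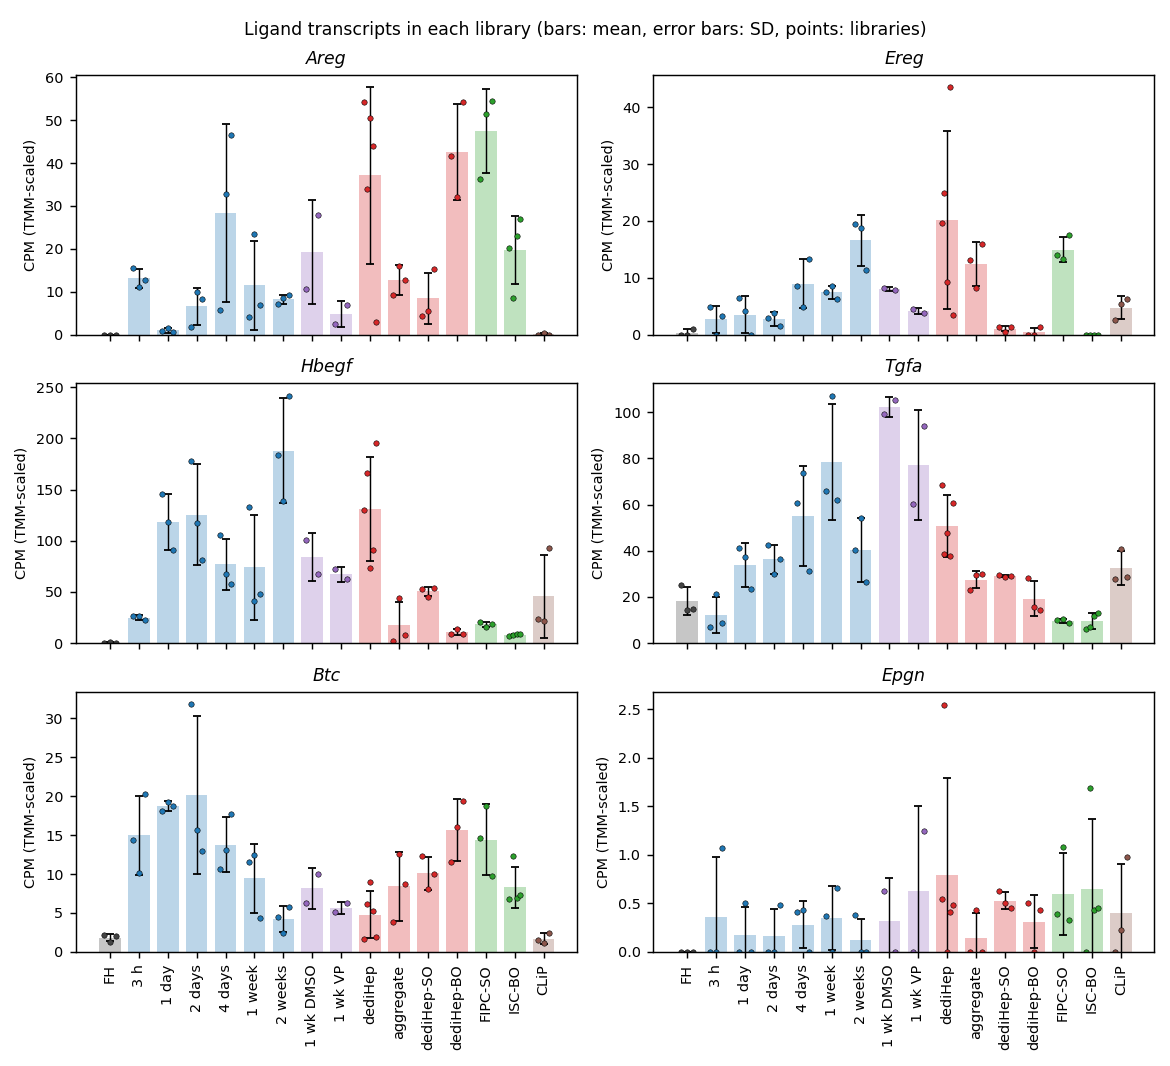
Level of the 6 ligands in each library (points) with the condition mean (bar) and SD (error bar), as TMM-scaled CPM, for the 16 conditions. Hbegf rises from 0.435 CPM in FH to 188 CPM at 2 weeks, Areg has an early level at 3 h and is near 0 at 1 day, and Epgn stays under 1 CPM on average.

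A call below means an edgeR FDR under 0.1 with a log2 fold change beyond 2 in either direction, read against the share of all tested genes called in that direction. Erbb2 and Areg had 0 UMIs in FH, and Ereg and Hbegf had 1 each. In every comparison with FH they therefore passed the low-count filter only through the other libraries. Once tested they could only be higher, so their calls cannot be weighed against the share of all genes. Of 9 members tested in the time course (12443 genes tested), 3 were called at 3 h against FH, all higher and all ligands (background 3.06% higher, 3.85% lower). At 1 day 4 were called higher and 1 lower (6.57% and 10.9%), at 2 days 4 and 2 (9.21% and 12.1%), at 4 days 5 and 1 (11.4% and 12.4%), at 1 week 5 and 1 (13.2% and 12.8%) and at 2 weeks 4 and 1 (14.1% and 15.3%). Members called lower against FH were receptors at each time, Erbb3 from 1 day onward and Egfr at 2 days, and those called higher were ligands and Erbb2. With library totals the lower calls of Erbb3 at 1, 2 (−1.79) and 4 days (−1.57) and in dediHeps, and of Egfr at 2 days, were short of the fold threshold. From 3 h to 1 day, 2 were called higher, Erbb2 and Hbegf, and Areg lower (10.7% and 13.47%). From 1 to 2 days only Areg was called, higher by 2.72 ± 0.91 (edgeR FDR = 0.098; 2.52% and 1.86%), and this did not pass in 5 of 6 fits without 1 library. Later steps gave 0 calls: 4 days against 2 days (1.08% and 1.27%, 2 members at an unadjusted edgeR p under 0.05), 1 week against 4 days (0.796% and 0.932%, 0 members) and 2 weeks against 1 week (0.707% and 1.04%, 3 members), and DESeq2 also called 0 in each. Hbegf rose between 1 and 2 weeks by 1.41 ± 0.41 (edgeR FDR = 0.093), short of the fold threshold and lost in 5 of 6 fits without 1 library.

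**Figure D5:**
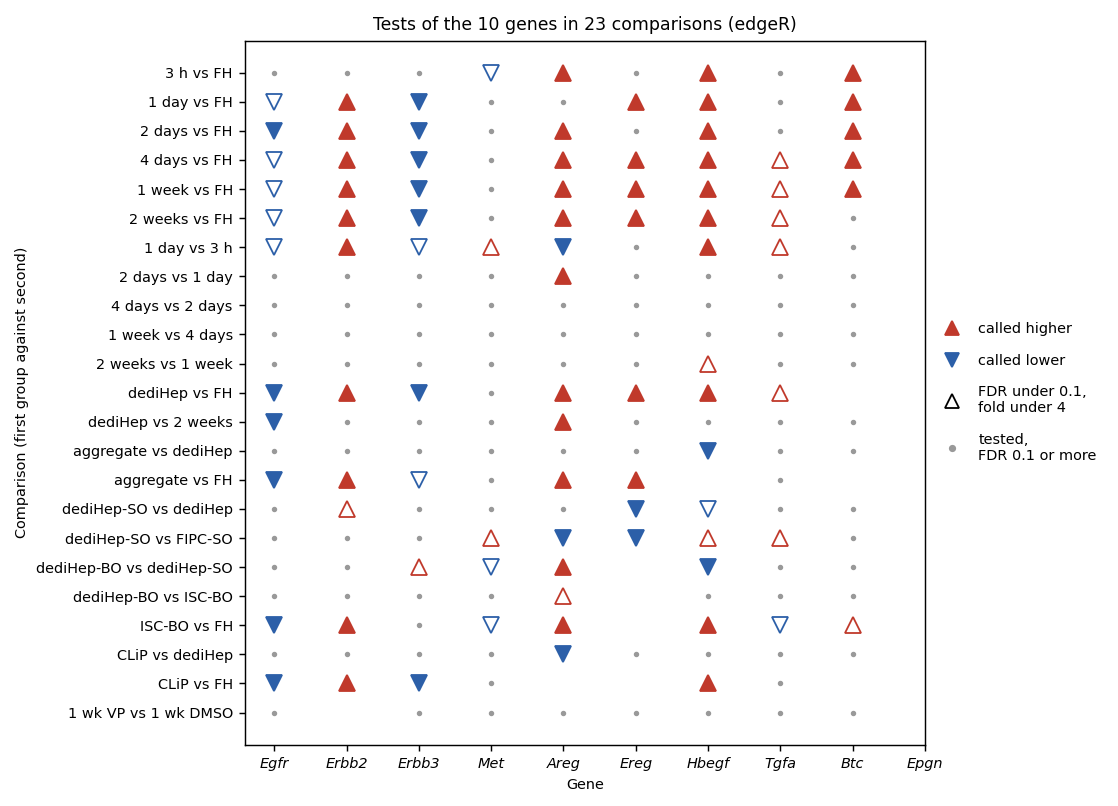
Direction and threshold class of the members tested in each comparison. Filled triangles mark calls (FDR under 0.1 and a log2 fold change beyond 2). Open triangles mark an FDR under 0.1 short of that fold, and dots the other tests. Ligands and Erbb2 are called higher against FH and Egfr and Erbb3 lower, while Met is called in none of the comparisons.

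In dediHeps against FH, 6 of 8 tested members were called: Erbb2, Areg, Ereg and Hbegf higher (13.1% of 11276 genes) and Egfr and Erbb3 lower (12.6%). Those called higher had 0 or 1 UMI in FH and were tested only because of the dediHep libraries. Areg was at least 29.5-fold above the FH floor (edgeR FDR = 0.0034), Ereg 45.7 times the 1 UMI in FH (95% counting interval 8.12 to 1812, FDR = 0.0055) and Hbegf 286 times (51.2 to 11290, FDR = 2.5e-05). Against the 2-week cultures, Areg was called higher (3.84%) and Egfr lower (2.09%), so of the members tested only these 2 passed this later comparison. That count ranged from 0 to 2 without 1 library.

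Aggregation of dediHeps, which the study used to return them towards hepatocytes, came with lower Hbegf, and Egfr in aggregates stayed below every FH library. Hbegf held 2.32, 43.9 and 7.69 CPM in aggregates, all below the 73.7 to 196 CPM of dediHeps (−2.80 ± 0.74, edgeR FDR = 0.033), the 1 member called (4.39% of genes called higher, 5.11% lower). Over fits without 1 library Hbegf ranged from −4.58 to −2.32, and it did not pass without aggregate replicate 3. With the culture as a block, since the labels give matching culture names, Hbegf was −3.34 (edgeR FDR = 0.0072), Areg −1.72 (FDR = 0.025) and Erbb3 2.19 (FDR = 0.030). Without the block, Areg was −1.51 ± 0.70 (edgeR FDR = 0.16) and Erbb3 1.41 ± 0.56 (FDR = 0.11). Erbb3 stood at 44.1, 36.1 and 41.5 CPM, above all 5 dediHep libraries, and Areg at 9.28, 16.1 and 12.8 CPM, below 4 of 5. Egfr was at 17.8, 13.9 and 14.9 CPM, −1.02 ± 0.74 against dediHeps (edgeR FDR = 0.36) and 0.10 without dediHep replicate 1. The summed hepatocyte markers were meanwhile 8610 ± 1821 CPM in aggregates against 2801 ± 1362 in dediHeps. Against FH, 3 members were called higher in aggregates (6.78%), Areg (at least 10.7-fold, edgeR FDR = 0.0017), Ereg and Erbb2, and Egfr lower (9.78%) by 5.33 ± 0.40 on the log2 scale (FDR = 8.6e-06). Erbb3 in aggregates lay −1.10 ± 0.44 from FH (edgeR FDR = 0.086), lost in 5 of 6 fits without 1 library and with library totals (−0.44, FDR = 0.44), and Hbegf and Btc did not pass the low-count filter in that comparison.

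In dediHep-derived SOs, Erbb2 rose further and Ereg was the 1 ligand called, lower. Erbb2 held 63.0, 46.7 and 38.0 CPM, each above the highest dediHep library at 24.6 CPM (1.54 ± 0.39, edgeR FDR = 0.027), a difference that did not pass without SO replicate 1 (range 1.31 to 1.73 over fits without 1 library). Ereg dropped to 1.26, 0.502 and 1.36 CPM, below all dediHep libraries (3.38 to 43.6 CPM; −4.14 ± 0.87, edgeR FDR = 0.011), the 1 member called (4.12% higher, 4.65% lower). Hbegf fell to 53.2, 45.2 and 53.4 CPM (−1.35 ± 0.37, edgeR FDR = 0.042), and this was lost with the culture as a block (FDR = 0.19). Areg was −2.13 ± 0.79 (edgeR FDR = 0.12) and −2.63 with the block (FDR = 0.051). Egfr at 9.45, 14.1 and 10.4 CPM overlapped dediHeps (−1.52 ± 0.78, edgeR FDR = 0.25).

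Beside FIPC-derived SOs, dediHep-derived SOs had less Areg and Ereg and more Hbegf, Tgfa and Met. Areg held 4.41, 5.52 and 15.4 CPM against 36.3, 51.4 and 54.6 CPM (−2.51 ± 0.49, edgeR FDR = 0.0074), and Ereg 0.502 to 1.36 against 13.4 to 17.4 CPM (−3.75 ± 0.49, FDR = 0.00091). These 2 were called lower (3.99%) and none of the 9 tested was called higher (4.92%). Hbegf was 1.46 ± 0.30 higher (edgeR FDR = 0.0094), Tgfa 1.56 ± 0.31 (FDR = 0.0083) and Met 1.30 ± 0.36 (FDR = 0.036), all short of the fold threshold, and Met did not pass without SO replicate 1, FIPC-derived SO replicate 2 or FIPC-derived SO replicate 3 (range 1.09 to 1.82). FIPC-derived SOs held mesenchymal markers at 5.06 to 473 CPM (6 of 6 detected) and dediHep-derived SOs at 0 to 0.63 CPM, whose part in these differences was not tested. Egfr (11.3 ± 2.43 and 14.2 ± 0.901 CPM) and Erbb2 (49.2 ± 12.7 and 36.5 ± 6.61 CPM) overlapped between both kinds of SO.

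The Cdx2-transduced BOs differed from dediHep-derived SOs in Areg, Hbegf, Met and Erbb3. Areg held 41.5, 32.0 and 54.3 CPM, above all SO libraries (2.33 ± 0.49, edgeR FDR = 0.0068), and was the 1 member called higher (5.60%). Hbegf at 9.01, 13.8 and 8.62 CPM (−2.26 ± 0.33, edgeR FDR = 0.00091) was the 1 called lower (5.68%). Met held 185, 178 and 162 CPM against 622, 537 and 426 CPM (−1.60 ± 0.23, edgeR FDR = 0.00089), while Erbb3 was 1.02 ± 0.30 higher (FDR = 0.031), though not without SO replicate 2 or BO replicate 1 (range 0.90 to 1.25). BO libraries held mesenchymal markers at 4.31 to 290.3 CPM (6 of 6 detected), which was not tested as a source of these differences. Against ISC-derived BOs, 0 of 8 tested members were called by edgeR (1.34% higher, 1.71% lower) or by DESeq2, with 3 at an unadjusted edgeR p under 0.05. Areg was 1.17 ± 0.36 higher (edgeR FDR = 0.089), lost in 5 of 7 fits without 1 library. Receptor levels lay close together, Met at 175 ± 11.8 and 175 ± 68.7 CPM, Egfr at 11.7 ± 2.03 and 11.9 ± 1.64 CPM and Erbb2 at 40.3 ± 6.16 and 47.7 ± 17.3 CPM. ISC-derived BOs against FH gave Erbb2 (at least 37.5-fold, edgeR FDR = 4.6e-05), Areg (at least 15.4-fold, FDR = 0.00042) and Hbegf called higher (14.8%) with Egfr called lower (13.3%) by 5.72 ± 0.32 on the log2 scale (FDR = 1.1e-07). Met was also lower there (−1.71 ± 0.33, edgeR FDR = 0.0011).

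CLiPs, like dediHeps, had less Egfr and Erbb3 than FH, but they had almost no Areg. Areg held 0, 0.447 and 0 CPM (2 UMIs), 168-fold below dediHeps with a 95% counting interval of 46.3 to 1395 (edgeR FDR = 0.015), the 1 of 9 members called (1.65% higher, 1.39% lower). Egfr stood at 51.8, 77.1 and 94.1 CPM, between dediHep replicate 1 and the other 4 dediHep libraries (1.14 ± 0.71, edgeR FDR = 0.45), and it was called higher without dediHep replicate 1 (2.29). Against FH, Erbb2 (at least 12.0-fold, edgeR FDR = 0.003) and Hbegf (99.2 times, 95% counting interval 17.7 to 3932, FDR = 0.0028) were called higher (13.1%), and Egfr (−3.01 ± 0.45, FDR = 0.0015) and Erbb3 (−3.77 ± 0.70, FDR = 0.004) lower (11.4%). CLiPs held macrophage markers at 70.7 to 149 CPM, but only 2 of 6 were detected (Cd68 and Csf1r), and Ptprc, Adgre1, Clec4f and C1qa were at 0.

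Verteporfin gave no called member at 7 days in the fit without a block. Of 8 members tested, edgeR called 0 (0.240% of 10400 genes higher, 0.0288% lower) and DESeq2 0, with 2 at an unadjusted edgeR p under 0.05. Egfr held 108 and 124 CPM with verteporfin and 178 and 233 CPM with DMSO (−0.83 ± 0.25, edgeR FDR = 0.35), and Areg 2.57 and 6.84 against 10.7 and 27.8 CPM (−2.02 ± 0.59, FDR = 0.32). In both genes the treated libraries lay below the control libraries, but 2 against 2 libraries leave a wide interval. With the replicate number as a block, Areg was called lower (−2.02, edgeR FDR = 0.0057). That fold is close to the threshold, and without the block it ranged from −2.85 to −1.21 over fits that left out 1 library. The shares of genes given above belong to the fit without a block, so the blocked call has no background beside it. Tgfa at 60.3 and 93.9 CPM against 99.1 and 105 CPM differed by −0.41 ± 0.29 (edgeR FDR = 0.71).

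The wider pathway was followed through lists of 53 further genes. In dediHeps against FH, where 45.1% of all tested genes passed an edgeR FDR of 0.1 in either direction, 3 of 5 tested ligand shedding genes passed, all higher. Rhbdf1 (6.02 ± 5.23 to 72.5 ± 31.1 CPM, 3.33 ± 0.60, edgeR FDR = 0.0011) and Rhbdf2 (4.78 ± 0.784 to 27.5 ± 21.3 CPM, 2.31 ± 0.75, FDR = 0.031), iRhom proteins that carry Adam17 to the cell surface, were called, and Adam10 rose by 1.89 ± 0.62 (FDR = 0.032). Adam9 rose at 3 h (4.81 ± 1.49 to 49.3 ± 25.7 CPM, edgeR FDR = 0.0011). In aggregates Adam10 (−1.70 ± 0.49, edgeR FDR = 0.042) and Adam17 (−1.62 ± 0.42, FDR = 0.031) fell relative to dediHeps, and Rhbdf1 fell from SOs to BOs (129 ± 54.3 to 14.1 ± 4.30 CPM, FDR = 0.00051).

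Genes that dampen the receptors moved both ways. In dediHeps against FH, 4 of 7 tested attenuators passed higher and 1 lower, beside the 45.1% of all genes. Errfi1, which binds and inhibits the Egfr kinase, rose from 729 ± 132 CPM in FH to 1344 ± 87.3 at 3 h (0.89 ± 0.25, edgeR FDR = 0.023) and stood at 142 ± 25.5 in dediHeps (−2.58 ± 0.28 against FH, FDR = 3.4e-05). Socs5 (8.05 ± 3.28 to 49.97 ± 20.5 CPM, edgeR FDR = 0.0021) and the ubiquitin ligase Cblb (4.68 ± 3.19 to 25.9 ± 10.7 CPM, FDR = 0.016) rose. Cblc rose in SOs over dediHeps (0.813 ± 0.615 to 24.6 ± 10.5 CPM, edgeR FDR = 0.00072) and was the 1 attenuator called in CLiPs over dediHeps (6.79 ± 2.70 CPM, FDR = 0.065). Lrig3 had 102 UMIs in BOs and none in SOs, at least 37.7-fold higher (edgeR FDR = 0.0037).

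Of 22 adaptor and kinase genes, all tested, 4 passed higher and 3 lower in dediHeps against FH, a smaller share than the 45.1% of all genes, among them the adaptor Gab2 (2.33 ± 1.44 to 20.9 ± 10.1 CPM, 2.96 ± 0.70, edgeR FDR = 0.0062), Mapk3, which encodes the kinase ERK1 (1.68 ± 0.34, FDR = 0.0023), and Akt2 (−1.55 ± 0.40, FDR = 0.010). Of the other ErbB genes, Nrg4, a ligand of Erbb4, fell from 37.9 ± 30.1 CPM in FH to 2.77 ± 1.77 in dediHeps (−3.91 ± 0.64, edgeR FDR = 0.0006) and stood at 101 ± 70.1 in aggregates (5.13 ± 0.58 against dediHeps, FDR = 0.00053). Erbb4 itself had 24 UMIs in all libraries and Egf 66. Among HGF and Met partners, Hgf had 30 UMIs, and the HGF activator Hgfac stood at 384 ± 193 CPM in FH, 67.2 ± 50.6 in dediHeps (−2.73 ± 0.58, edgeR FDR = 0.0036) and 264 ± 17.4 in aggregates (FDR = 0.030). The matriptase gene St14 and its inhibitor Spint1 rose in SOs, to 25.5 ± 7.82 and 40.1 ± 5.77 CPM from 1.10 ± 1.15 and 1.64 ± 0.886 in dediHeps (edgeR FDR = 0.0027 and 0.00013).

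Ordered by their mean, few neighbouring conditions were separated by more than their SDs. Among 15 neighbouring pairs this held for 2 in Egfr, 2 in Erbb2, 1 in Erbb3, 2 in Areg, 3 in Hbegf and 1 in Btc, and for 0 in Met, Ereg, Tgfa and Epgn. Between members the strongest descriptive correlations over the 16 condition means of log2(CPM + 1) were Egfr with Erbb2 (r = −0.91), Erbb3 with Hbegf (−0.79) and Erbb3 with Tgfa (−0.76). Among 12791 genes, the profile most like that of Egfr was Hectd2 (r = 0.955), followed by Hnmt (0.95) and Igf1 (0.947). Erbb2 was nearest to Frk (0.988), Dok4 (0.971) and Pak1 (0.969), Erbb3 to Cutc, Stard4 and Ceacam1 (0.928 each), and Met to Grn (0.95), Tmem248 (0.941) and Wdr26 (0.932). Of the ligands, Hbegf was nearest to Ier3 (0.919), Tnfrsf12a (0.915) and Krt18 (0.905), Tgfa to Sorbs2 (0.942), Gm42679 (0.931) and Zfp9 (0.924), and Btc to Bcap29 (0.858), Abce1 (0.845) and Gm8741 (0.841). Areg, nearest to R3hdm1 (0.850), Hic2 (0.828) and Gm7857 (0.796), and Ereg, nearest to Zdhhc12 (0.824), Tceal8 (0.806) and Eid2 (0.803), had the lowest likeness to any gene. All these coefficients share libraries and scaling and are given without a test.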

How the data were processed

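RNA of 49 bulk samples was sequenced from the 3′ end by CEL-seq2. The deposited values are raw UMI counts per Ensembl gene for each library, made by the authors; the submitters' processing notes name bcl2fastq 2.20, Bowtie2 2.3.1, HTSeq 0.6.0 and GRCm38. UMIs of 6 bases allow at most 4096 counts per gene, a limit reached in 4 libraries but not by any member (highest count 2115). Low-count genes were removed by filterByExpr (minimum count 10, minimum total 15), counts were scaled by TMM, and edgeR 4.0.16 in R 4.3.3 fitted quasi-likelihood models with Benjamini-Hochberg adjustment over all tested genes: 1 model of FH and the 6 culture times, and 12 models of 2 groups, 23 comparisons in all. A call was an FDR under 0.1 with a log2 fold change beyond 2, as in the study's own methods. Standard errors are those implied by the quasi-likelihood F statistic. Levels are CPM scaled by TMM over all 49 libraries. Against a group with 0 counts the fold is a lower bound from 3 counts over the group, and against 1 to 3 counts it is a ratio with an exact binomial 95% interval, and both cover counting error only. Named pathway genes were at most 3 per list and comparison, those with the smallest p at an FDR under 0.1, besides Erbb4, Egf and Hgf, and the genes most alike in profile were the 3 with the highest r among genes with at least 10 CPM in some condition. The members and lists were chosen with earlier results of these data known. Alternatives were relative log expression (RLE) scaling, library totals, DESeq2 1.42.0, no filter, a replicate block, a correction for UMI collisions, 1 fit of all 49 libraries and leaving out each library. Of the 54 replicate pairs none agreed within sampling noise (chi-square per degree of freedom 6.29 to 74.5). On simulated counts the edgeR step was tested with genes changed by known folds. Culture names in the labels pair aggregates with dediHeps (correlation of deviations 0.182 to 0.358) and SOs with dediHeps (−0.494 to 0.042). Replicate numbers paired 1 week with 4 days (0.272 to 0.627), where the block changed no call.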

Additional observations from a re-analysis of the deposited data

Results flagged for a closer look

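Of 19 sets of library values with 4 or 5 libraries that were screened with Dixon's ratio at the 95% level, 4 held a library that stands apart, where chance gives about 1 in 20. Egfr was 100.2 CPM in dediHep replicate 1, against 12.0 to 18.7 CPM in the other 4 dediHep libraries. Met was 278 CPM in ISC-derived BO replicate 2, against 134 to 148 CPM in the other 3, and Btc was 12.3 CPM in the same library, against 6.75 to 7.29 CPM. Epgn was 2.54 CPM in dediHep replicate 2, against 0 to 0.547 CPM in the other 4.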

How the results depend on the processing

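Most results kept their direction and their side of the threshold, and the causes of the exceptions were not tested. Against FH, Met turned positive with library totals in place of TMM, to 0.66 at 2 days, 0.29 at 4 days, 0.47 at 1 week and 0.79 in dediHeps. With the UMI collision correction it was 0.071 at 2 days and 0.12 in dediHeps, where no low-count filter gave 0.034 and the fit of all 49 libraries 0.027. Egfr and Erbb3 against FH were also weaker with library totals and Tgfa stronger, as given beside those results. The number of members called moved from 3 to 5 between 3 h and 1 day with library totals, from 1 to 0 between 1 and 2 days in the fit of all 49 libraries, and from 0 to 1 between 2 and 4 days without a filter and with the replicate block. In dediHeps against 2 weeks DESeq2 gave 1 in place of 2, since it set no adjusted p for Egfr. For SOs against dediHeps 2 in place of 1 were called by DESeq2, without a filter, with the culture block and with all 49 libraries, and for CLiPs against dediHeps 2 by DESeq2 and with all 49 libraries. For aggregates against dediHeps the culture block gave 2 in place of 1. With verteporfin, no filter and the replicate block each gave 1 in place of 0. In that comparison the labels number 2 pairs alike, but do not say that a pair came from 1 animal. The correlation of deviations was 0.438 in both pairs, which must be equal with 2 libraries per group. Under the block Areg was −2.02 (edgeR FDR = 0.0057) and Egfr −0.82 (FDR = 0.013), given without the share of all genes that passed under the block. At 1 day against FH, deviations of libraries numbered alike correlated at −0.147 to 0.409. There the replicate block gave Ereg an FDR of 0.12 and left 4 members called in place of 5. In aggregates against FH Erbb3 no longer passed with it (FDR = 0.11). The block used the replicate numbers of the titles, and at 3 h the labels carry other numbers than in FH. Of the member results printed here the block changed no other call.

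Leaving out 1 library gave 2 to 4 calls at 1 day against FH (5 with all libraries), 1 to 3 from 3 h to 1 day, 0 to 1 for each later step and for aggregates against dediHeps and verteporfin, 0 to 2 in dediHeps against 2 weeks, and 1 to 2 for SOs and for CLiPs against dediHeps. Met against FH then ranged from −0.034 to 0.41 at 1 day, −0.38 to 0.025 at 2 days, −1.03 to 0.012 at 1 week and −0.26 to 0.063 in dediHeps, and Egfr in aggregates against dediHeps from −1.28 to 0.10. Areg with verteporfin ranged from −2.85 to −1.21. Depth limits Erbb2, Areg, Ereg and Hbegf in FH and at 3 h, where 3 counts stand for 2.99 to 3.91 CPM.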
